A study of Homo sapiens with 6 samples.

Results

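RMRP, RPPH1, RN7SK, RN7SL1, RN7SL2 and RNU6ATAC are 6 genes of short non-coding RNAs that are transcribed by RNA polymerase III (Pol III). They were taken by name, and every peak of chromatin-bound SUMO-2/3 within 1 kb of each of them was collected from 3 peak lists. In mock-treated cells all 6 genes had a peak, and the 9 peaks near them were taken from a list of 44265. After cytosine arabinoside (Ara-C) all 6 genes again had a peak, with 8 peaks of 72279. After daunorubicin (DNR) 4 of the 6 genes had a peak, with 5 peaks of 33355, and RPPH1 and RN7SL1 had none. These 2 are also the members that the annotation used does not name and that were placed by sequence. The 4 members it names had a peak in all 3 lists. For comparison, a mock, Ara-C or DNR peak lay within 1 kb of 23.0%, 27.8% and 6.61% of coding genes and of 4.67%, 6.51% and 2.13% of other small RNA genes.

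The cells were HL-60, an established line from a human acute myeloid leukaemia. For 2 h they received 2 µM Ara-C, which is a nucleoside analogue, 1 µM DNR, which is an anthracycline, or mock treatment, in order to learn whether the drugs alter where SUMOylated proteins sit on chromatin. SUMO-2 and SUMO-3 are ubiquitin-like proteins that are attached to other proteins, and the chromatin that carried them was immunoprecipitated with 2 µg of antibody and sequenced (ChIP-seq). Material from 3 replicates was pooled before sequencing, so each of the 3 conditions is 1 library with no replicate check, and no test between conditions was possible. The series has 6 samples, and its 3 input libraries were not analysed here. The lists hold positions with no height, and the depth behind each list is unknown from them. They also hold no expression values from which the cell type could be checked.

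Pol III makes transfer RNAs, 5S ribosomal RNA and a set of short structured RNAs. Some of its genes carry their promoter inside the transcribed sequence, while others, among them RMRP, RPPH1, RN7SK and the genes of the U6 type, are driven from upstream by a TATA box and a proximal sequence element that is bound by the SNAPc complex, often with a distal octamer bound by OCT1. Genes of the 7SL type use both internal and upstream elements. SUMO is attached to many transcription factors and chromatin proteins, and SUMOylated proteins are known to occupy Pol III genes.

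The 100 bases before the 5′ end of each gene are shown because they hold the upstream promoter elements and because the peaks differ in whether they cover them. They were read from the GRCh37 genome, on the strand of the gene, 5′ to 3′. Capitals mark letters searched for on both strands, namely TCACCNTNA as the core of the proximal sequence element, ATTTGCAT as the octamer, TATAA as the TATA box and TGACGT as the core of the cAMP response element.
RMRP: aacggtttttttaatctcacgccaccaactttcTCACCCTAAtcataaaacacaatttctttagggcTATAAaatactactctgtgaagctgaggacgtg
RPPH1: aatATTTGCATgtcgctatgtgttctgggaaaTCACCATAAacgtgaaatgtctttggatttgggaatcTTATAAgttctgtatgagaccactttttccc
RN7SK: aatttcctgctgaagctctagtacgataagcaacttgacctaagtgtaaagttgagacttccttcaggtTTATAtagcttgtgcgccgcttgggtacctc
RN7SL1: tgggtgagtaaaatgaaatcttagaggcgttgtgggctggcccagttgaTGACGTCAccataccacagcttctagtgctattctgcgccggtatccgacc
RN7SL2: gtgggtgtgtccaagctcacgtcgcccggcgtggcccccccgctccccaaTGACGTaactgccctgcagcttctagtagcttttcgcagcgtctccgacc
RNU6ATAC: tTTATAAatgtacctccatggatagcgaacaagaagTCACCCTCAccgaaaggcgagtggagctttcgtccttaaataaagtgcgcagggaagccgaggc

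The stretches are chr9:35658015-35658114 (minus strand) for RMRP, chr14:20811571-20811670 (minus) for RPPH1, chr6:52860318-52860417 (plus) for RN7SK, chr14:50053198-50053297 (plus) for RN7SL1, chr14:50329568-50329667 (minus) for RN7SL2 and chr9:137029687-137029786 (minus) for RNU6ATAC. Counting the first transcribed base as position 0, the proximal element letters began at position -67 in RMRP, -68 in RPPH1 and -64 in RNU6ATAC. TATAA followed at -33 in RMRP and at -30 in RPPH1, and RN7SK held the reverse complement, TTATA, at -31. In RNU6ATAC the TATAA letters lay farther out, at -98. The octamer was found at -97 in RPPH1 and, upstream of the printed stretch, at -217 in RMRP. Both 7SL genes held TGACGT, at -51 in RN7SL1, where it runs on into its own reverse complement, and at -50 in RN7SL2. RPPH1 also held TGACGT at -217.

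Between 250 bases upstream and 50 bases into the transcript, 2 members held the octamer, 3 the proximal element, 4 TATAA and 3 TGACGT, counting both strands. The 4 with TATAA include RN7SK, on the other strand only, and RNU6ATAC, upstream of its proximal element. RN7SK, named above among genes driven by a proximal element, had no match to its letters. In the same window of 20163 coding gene promoters, the octamer was found in 1.66%, the proximal element in 2.49%, TATAA in 18.7% and TGACGT in 8.86%. In the windows of 5929 other annotated small RNA genes the shares were 2.66%, 4.64%, 49.9% and 2.04%. The consensus core of CTCF, a zinc finger protein that organises chromatin, was found in none of the 6 windows, against 0.362% of coding promoters and 0.0169% of the other small RNA genes, so a count of 0 is near the background. These matches describe letters and not binding.

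In mock-treated cells the peaks covered all 100 printed bases at RMRP, RPPH1, RN7SL2 and RNU6ATAC, 83 of them at RN7SK and 0 at RN7SL1. In the Ara-C list they covered all 100 at every gene except RN7SL1, again with 0. In the DNR list they covered all 100 at RMRP, RN7SK and RNU6ATAC and 0 at RPPH1, RN7SL1 and RN7SL2. The stretch upstream of RN7SL1 was thus under no peak in any list, and the 3 genes with DNR peaks over it were RMRP, RN7SK and RNU6ATAC.

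**Figure D1:**
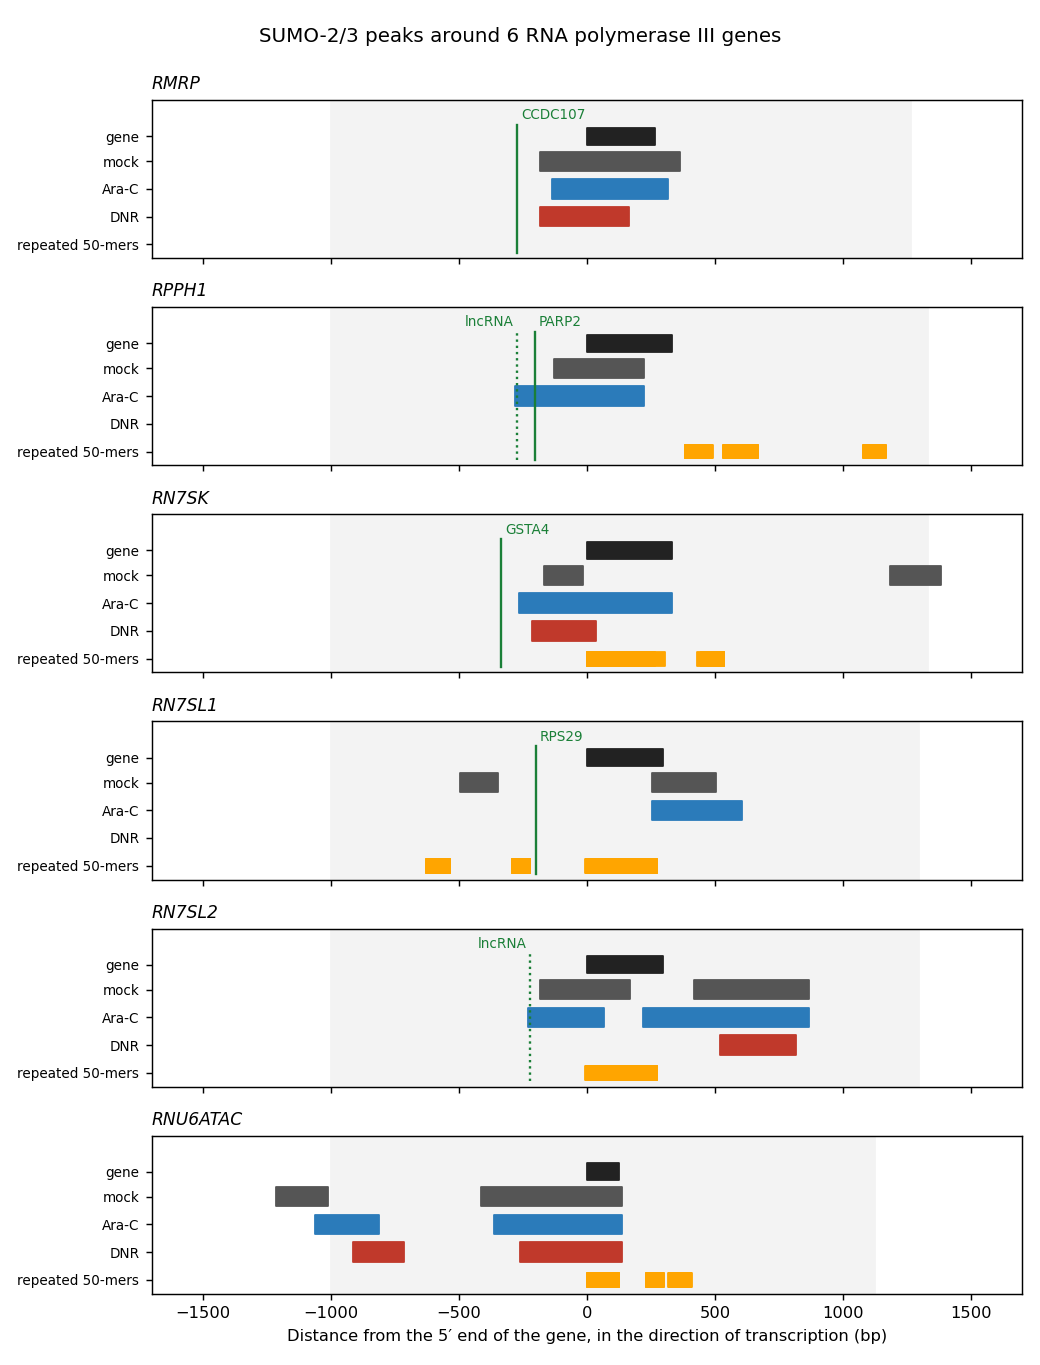
Peaks around the 6 genes, drawn against the distance from the 5′ end in the direction of transcription (bp). Black bars are the genes, grey, blue and red bars are mock, Ara-C and DNR peaks, orange bars are windows of 50 bases that occur more than once in the genome, solid green lines are coding transcription start sites, dotted green lines are long non-coding RNA starts, and the pale area is the window of 1 kb on either side of the gene. RPPH1 and RN7SL1 have no red bar, and at RN7SL2 the red bar lies downstream of the gene.

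RMRP encodes the RNA of RNase MRP, a ribonucleoprotein that processes ribosomal RNA precursors. The gene spans chr9:35657751-35658014 on the minus strand, 264 bp annotated as a ribozyme. It had 1 peak in each list, over the 5′ end in all of them. The mock peak (chr9:35657651-35658200) was 550 bp wide and covered the whole gene, from position -186 to 363. The Ara-C peak (chr9:35657701-35658150) was 450 bp wide, and the DNR peak (chr9:35657851-35658200) was 350 bp wide and ended inside the gene, at position 163. The Ara-C and DNR peaks both lay wholly inside the mock peak and shared 300 bp with each other.

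RPPH1 encodes the RNA of RNase P, which trims the 5′ ends of transfer RNAs and is related to RNase MRP. It is not named in the annotation used and was placed at chr14:20811241-20811570, minus strand, by its match to the annotated copy RPPH1-3P, with 77.9% identity over 289 bp of a query of 322 bp. Its ends therefore carry more uncertainty than those of the annotated members. The mock peak (chr14:20811351-20811700) was 350 bp wide, from position -130 to 219. The Ara-C peak (chr14:20811351-20811850) was 500 bp wide, contained the whole mock peak and reached farther upstream, to position -280. No DNR peak was found within 5000 bp of the gene.

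RN7SK encodes 7SK, the RNA that holds the elongation factor P-TEFb in an inactive complex. The gene spans chr6:52860418-52860748 on the plus strand, 331 bp. In mock-treated cells it had a peak of 150 bp (chr6:52860251-52860400) that ended 18 bp before the gene, and another of 200 bp (chr6:52861601-52861800) that began 853 bp after it. The Ara-C peak (chr6:52860151-52860750) was 600 bp wide and ran over the upstream stretch and the whole gene. The DNR peak (chr6:52860201-52860450) was 250 bp wide and reached 33 bp into the gene. RN7SK was the member whose mock peak did not touch the gene, and it had the narrowest mock peak at its 5′ end. That mock peak lay wholly inside both the Ara-C and the DNR peak, which shared 250 bp, while the downstream mock peak had no partner in either list.

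RN7SL1 and RN7SL2 encode 7SL, the RNA scaffold of the signal recognition particle, which directs secretory proteins to the endoplasmic reticulum. Their sequences of 297 bp differed at 4 positions, an identity of 98.7%. RN7SL1 is not named in the annotation used and was placed by this match at chr14:50053298-50053594, plus strand. RN7SL2 is annotated at chr14:50329271-50329567, minus strand.

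At RN7SL1 the mock list held a peak of 150 bp (chr14:50052801-50052950) 348 bp upstream and a peak of 250 bp (chr14:50053551-50053800) over the 3′ end, from position 253 to 502. The Ara-C list held 1 peak of 350 bp (chr14:50053551-50053900), which contained the whole mock peak at the 3′ end. No Ara-C peak matched the upstream mock peak, and the nearest lay 601 bp away. No DNR peak was found within 5000 bp. The peaks over the 3′ end shared 44 bp with the gene in both lists, so RN7SL1 had no peak at its 5′ end in any list.

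At RN7SL2 each of the mock and Ara-C lists held a peak over the 5′ end and another toward the 3′ side, which began 121 bp beyond the gene in mock and overlapped its last 80 bp in Ara-C. The mock peaks were 350 bp (chr14:50329401-50329750) and 450 bp wide (chr14:50328701-50329150), and the Ara-C peaks 300 bp (chr14:50329501-50329800) and 650 bp wide (chr14:50328701-50329350). The DNR list held only a downstream peak of 300 bp (chr14:50328751-50329050), 221 bp beyond the gene and wholly inside the 3′ peaks of both other lists. The nearest DNR peak to the mock peak at the 5′ end was this one, 351 bp away. The 2 genes, though nearly identical in sequence, thus differed in where their peaks lay.

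RNU6ATAC encodes U6atac, the catalytic small nuclear RNA of the minor spliceosome, which removes a rare class of introns. The gene spans chr9:137029561-137029686 on the minus strand, 126 bp, the shortest of the 6. All 3 lists had a peak that began 10 bp beyond its 3′ end, covered the gene and ran upstream for different lengths. It was 550 bp wide in mock (chr9:137029551-137030100), 500 bp in Ara-C (chr9:137029551-137030050) and 400 bp in DNR (chr9:137029551-137029950), so each lay wholly inside the wider ones. Farther upstream, Ara-C had a peak of 250 bp (chr9:137030501-137030750), 815 bp from the gene, and DNR a peak of 200 bp (chr9:137030401-137030600), 715 bp from it. A mock peak of 200 bp (chr9:137030701-137030900) lay 1015 bp away, just outside the window. That mock peak shared 50 bp with the Ara-C peak and none with the DNR peak, and the Ara-C and DNR peaks shared 100 bp.

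Merged across lists, the peaks near the members formed 10 regions. In 5 regions, at RMRP, RN7SK, RN7SL2 and RNU6ATAC, all 3 lists were present, which is 50% of the 10, and at RNU6ATAC 2 such regions were counted, the farther of them with the help of the mock peak just outside the window. Mock and Ara-C alone formed 3 regions, at RPPH1, RN7SL1 and RN7SL2, and mock alone formed 2, at RN7SK and RN7SL1. Over the genome, 903 of 139091 merged regions, or 0.649%, held all 3 lists. Of the 9 mock peaks near members, 7 shared at least 1 bp with an Ara-C peak and 4 with a DNR peak. Over all 44264 mock peaks outside the mitochondrial chromosome, the shares were 16.1% and 3.38%.

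The peaks near the members were wide for their lists. The median width of all peaks was 150 bp in all 3 lists, whereas the median near the members was 350 bp in mock, 475 bp in Ara-C and 300 bp in DNR. Apart from 1 mock peak, 150 bp is the shortest width in the lists. It was the width of 52.1% of mock, 51.5% of Ara-C and 56.3% of DNR peaks, so the equal list medians lie at this lower limit. A width of at least 300 bp was reached by 5 of the 9 mock peaks (55.6%), 7 of the 8 Ara-C peaks (87.5%) and 3 of the 5 DNR peaks (60.0%). In the whole lists the shares were 9.72%, 7.93% and 5.26%. Since a peak is a run of bins above a fixed signal value, its width also depends on the depth and scaling of its library, and the part of these in the widths was not tested.

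**Figure D2:**
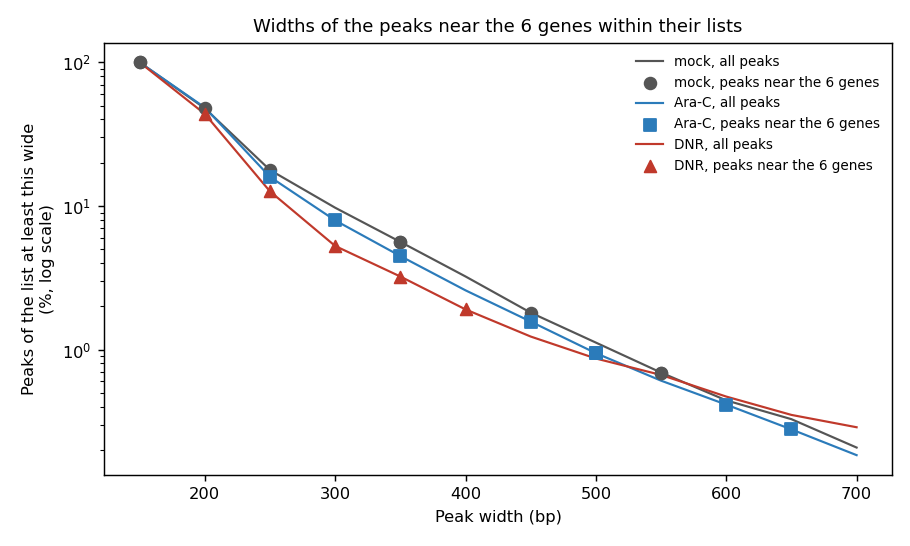
Share of each list (%, log scale) that is at least as wide as the width on the horizontal axis (bp). Lines are whole lists and points the peaks near the 6 genes, with several points on top of each other where widths are equal. The points reach 550 bp in mock, 650 bp in Ara-C and 400 bp in DNR.

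The widest mock peaks near members were those at RMRP and RNU6ATAC, a width that 0.691% of the mock list reached. In the Ara-C list the 3′ peak of RN7SL2 (reached by 0.278% of the list) and the peak of RN7SK (0.414%) were the widest, and in the DNR list those at RNU6ATAC (1.90%) and RMRP (3.23%). At the other end, the mock peak before RN7SK and the mock peak upstream of RN7SL1 were 150 bp wide, like 52.1% of the mock list. The members therefore differed in which list held the widest peak.

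The summed width of the peaks was 550, 450 and 350 bp at RMRP in mock, Ara-C and DNR. At RPPH1 it was 350, 500 and 0 bp, and at RN7SK 350, 600 and 250 bp. The Ara-C value was thus the highest of the 3 at RPPH1 and RN7SK and not at RMRP. RN7SL1 had 400, 350 and 0 bp, and RN7SL2, the highest of all members in mock and Ara-C, 800, 950 and 300 bp. RNU6ATAC had 550, 750 and 600 bp and was the member with the most bases under DNR peaks. Over the 6 genes the peaks covered 3000 bp in mock, 3600 bp in Ara-C and 1500 bp in DNR. DNR was below mock at the other 5 members. At RNU6ATAC the order of DNR and mock rests on the window, since counting peaks within 2000 bp adds the mock peak at 1015 bp and gives 750 bp in mock against 600 bp in DNR. The order of Ara-C and DNR at RMRP also rests on it, with 450 bp in Ara-C and 500 bp in DNR within 2000 bp.

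**Figure D3:**
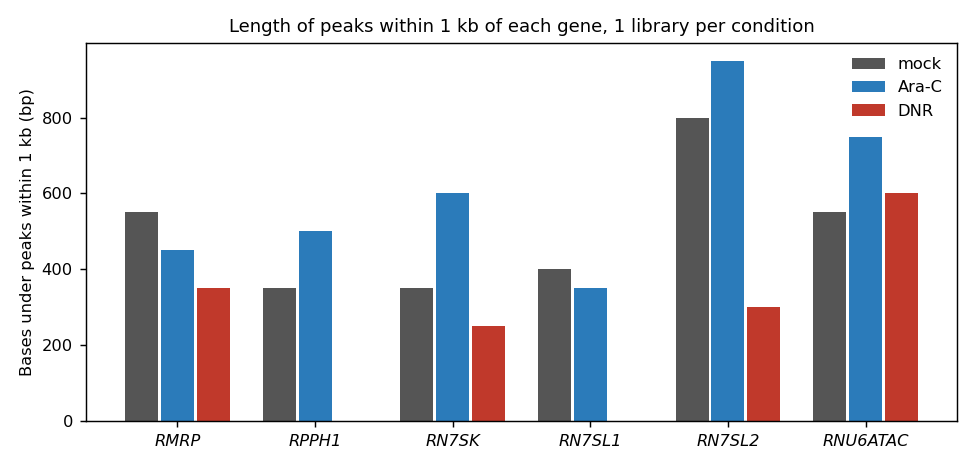
Summed width (bp) of the peaks that come within 1 kb of each gene, counting each peak at its full length, with 1 library per condition and therefore no error bars. DNR bars are missing at RPPH1 and RN7SL1, and at RNU6ATAC the DNR bar (600 bp) is above the mock bar (550 bp), an order that turns when a mock peak of 200 bp just outside the window is counted.

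Of the 6 genes, 4 lie head to head with a coding gene whose transcription start site (TSS) is within 1 kb, so their peaks could also belong to that gene. The neighbour of RMRP is CCDC107, with a TSS 273 bp upstream of the 5′ end of RMRP. PARP2, a poly(ADP-ribose) polymerase that acts in the DNA damage response, starts 204 bp upstream of RPPH1. GSTA4, a glutathione S-transferase, starts 336 bp upstream of RN7SK, and RPS29, a protein of the small ribosomal subunit, 200 bp upstream of RN7SL1. RN7SL2 and RNU6ATAC have no coding TSS within 1 kb, the nearest being those of NEMF at 10028 bp and WDR5 at 28482 bp. A long non-coding RNA (ENSG00000278002) does start 223 bp upstream of RN7SL2, facing away from it, and another (ENSG00000259001) has its 5′ end 274 bp from that of RPPH1.

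By position, 5 of the 9 mock peaks, 4 of the 8 Ara-C peaks and 2 of the 5 DNR peaks came within 1 kb of a coding TSS. At RMRP the peaks stopped 87 bp (mock), 137 bp (Ara-C) and 87 bp (DNR) short of the CCDC107 TSS. Their midpoints lay 88.5, 88.5 and 11.5 bp from the 5′ end of RMRP and 361.5, 361.5 and 261.5 bp from that of CCDC107. All 3 RMRP peaks were thus nearer to RMRP.

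At RPPH1 the mock peak stopped 74 bp short of the PARP2 TSS and the Ara-C peak covered it. The midpoints were 44.5 bp (mock) and 30.5 bp (Ara-C) from the 5′ end of RPPH1 and 248.5 and 173.5 bp from that of PARP2. At RN7SK the peaks near the 5′ end stopped 169 bp (mock), 69 bp (Ara-C) and 119 bp (DNR) short of the GSTA4 TSS, with midpoints 92.5, 32.5 and 92.5 bp from the 5′ end of RN7SK and 243.5, 368.5 and 243.5 bp from that of GSTA4. These peaks too were nearer to the Pol III gene in every list. The mock peak downstream of RN7SK was not near a coding TSS.

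At RN7SL1 the peaks were split. The midpoint of its upstream mock peak lay 218.5 bp from the RPS29 TSS and 422.5 bp from the 5′ end of RN7SL1, beyond the RPS29 TSS as seen from RN7SL1, so by distance this peak was nearer to RPS29. Its peaks over the 3′ end were 453 bp from the RPS29 TSS in both lists, with midpoints 377.5 bp (mock) and 427.5 bp (Ara-C) from the 5′ end of RN7SL1 and 577.5 and 627.5 bp from the RPS29 TSS, so both were nearer to RN7SL1. Distance alone cannot assign a peak between promoters this close, since each read was extended to a fragment length of 210 bp (220 bp for DNR). Without the peaks within 1 kb of a coding TSS, peaks were left at 3 members in mock (RN7SK, RN7SL2 and RNU6ATAC) and at 2 in Ara-C and in DNR (RN7SL2 and RNU6ATAC).

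The authors kept uniquely placed reads, and members differ in how much of their sequence allows that. RMRP and RPPH1 were unique in 100% of their windows of 50 bases, the read length. RNU6ATAC was unique in 55.8%, RN7SK in 23.4%, RN7SL1 in 14.9% and RN7SL2 in 12.1%. A single window of RN7SL2 occurred up to 19 times in the genome and of RN7SL1 up to 7 times. The 1 kb upstream and downstream of the genes was unique in 89.9% to 100% of windows.

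Within the peaks themselves, windows were unique in 100% in every peak at RMRP, RPPH1 and RN7SL1. At RN7SK they were unique in 100% of the mock and DNR peaks and in 60.4% of the Ara-C peak, which runs through the gene. At RN7SL2 the share was 60.8% in the mock peak at the 5′ end, 92.8% in the Ara-C peak there and 98.7% or more in the 3′ peaks. At RNU6ATAC the peaks over the gene were unique in 90.0% to 93.0%. Counted by base, 49.2% of RN7SK, 49.5% of RN7SL1 and 43.8% of RN7SL2 lay under at least 1 unique window, against 100% of the other 3 genes. A lack of peak over the remaining bases is not a measurement of lack of SUMO-2/3. What repeated sequence did to peak position at the 7SL genes was not tested.

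The members' counts are read against coding genes, measured from any TSS, and against other small RNA genes, measured from the gene as the members were. Of 19812 coding genes, 23.0% had a mock peak within 1 kb of a TSS, 27.8% an Ara-C peak and 6.61% a DNR peak, against 6, 6 and 4 of the 6 members. Of 5929 other small RNA genes of at most 400 bp, many of them copies scattered through the genome, 4.67% had a mock peak within 1 kb, 6.51% an Ara-C peak and 2.13% a DNR peak. Leaving out the small RNA genes near a coding TSS gave 4.23%, 6.09% and 2.12% of 5811. In counts this took mock from 277 to 246 genes, Ara-C from 386 to 354 and DNR from 126 to 123. The genes left out lie near a coding TSS, as 4 of the 6 members do. By these counts they had mock and Ara-C peaks more often than the rest. Among genes with both a mock and an Ara-C peak, a DNR peak was found at 13.4% of 2757 coding genes, at 10.0% of 100 small RNA genes and at 4 of the 6 members. The 6 members are too few, and were named with earlier results known, for these shares to be more than a description.

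Annotated copies of the members had peaks at shares of the same order as the other small RNA genes, and not as the members. Of 858 annotated 7SL copies other than the members, 3.85% had a mock peak within 1 kb, 4.90% an Ara-C peak and 2.10% a DNR peak. Of 294 copies of 7SK the shares were 5.10%, 7.14% and 1.36%. Of 40 copies of U6atac, 1 had a mock peak, 4 an Ara-C peak and 2 a DNR peak.

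**Figure D4:**
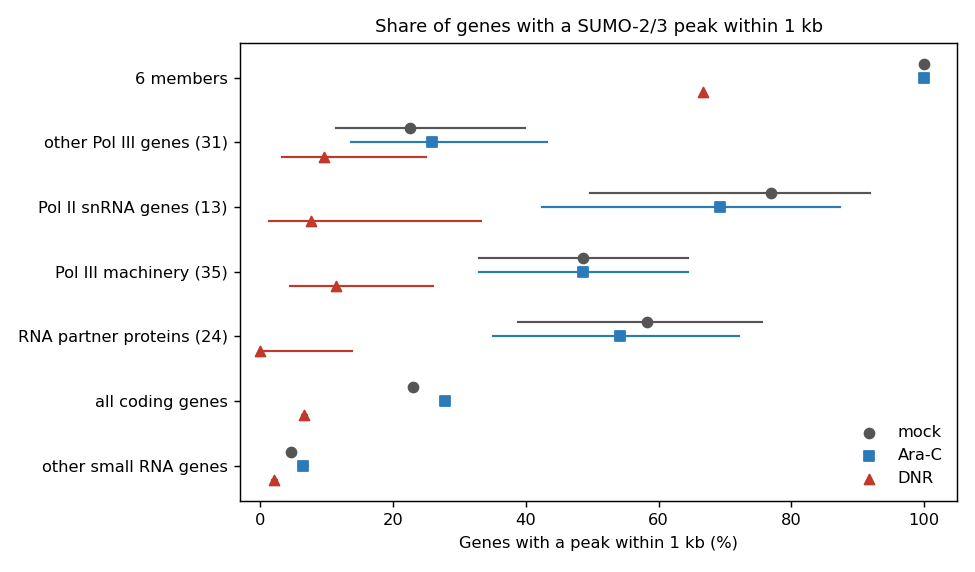
Share of genes with a peak within 1 kb (%), for the 6 members, 4 wider gene lists, all coding genes and other small RNA genes. Points are the 3 peak lists and lines are 95% Wilson intervals, which cover counting error only and are not drawn for the members. In mock and Ara-C the members stand at 100%, and in DNR at 4 of 6.

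Among 31 other Pol III genes (17 of 5S RNA and 14 of U6, Y, vault, BC200 and similar RNAs), 7 had a mock peak within 1 kb (22.6%), 8 an Ara-C peak (25.8%) and 3 a DNR peak (9.68%, Wilson interval 3.35% to 24.9%), against 4.67%, 6.51% and 2.13% of other small RNA genes. Within 500 bp, and likewise with peaks of at least 200 bp, 2 of the 31 had a DNR peak (6.45%, 1.79% to 20.7%). That interval includes the 2.13%. None of the 17 5S genes had a peak, and 1 of them held any window of 50 bases that is unique, against 8 of the other 14. RNU6-2, a gene of the U6 spliceosomal RNA, had a peak in every list, 500 bp wide in mock, 700 bp in Ara-C and 150 bp in DNR, and a coding TSS of TMEM259 within 1 kb. RNY4, which encodes a Y RNA bound by the Ro60 protein, also had a peak in every list, of 550, 150 and 200 bp, with no coding TSS near. Its mock and DNR peaks lay over the gene, as DNR peaks did at RMRP, RN7SK and RNU6ATAC, and its Ara-C peak 7 bp from it. VTRNA1-1, a vault RNA gene, had peaks of 500 bp (mock) and 350 bp (Ara-C), and BCYRN1, the BC200 RNA gene, a DNR peak of 200 bp 798 bp away. Of the 7 genes in this list with both a mock and an Ara-C peak, 2 had a DNR peak, against 10.0% of the 100 other small RNA genes with both. A pair of neighbouring U6 genes among the 7 shared a mock and an Ara-C peak, so the counts are not of independent genes.

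The small nuclear RNA genes of RNA polymerase II share the proximal sequence element and SNAPc with RMRP and RPPH1. Of the 13 such genes found in the annotation, 10 had a mock peak, 9 an Ara-C peak and 1 a DNR peak. The shares were 76.9% (Wilson interval 49.7% to 91.8%) in mock and 69.2% (42.4% to 87.3%) in Ara-C, above the 4.67% and 6.51% of other small RNA genes. In DNR the share was 7.69% (1.37% to 33.3%), an interval that includes their 2.13%. Within 500 bp, 0 of the 13 had a DNR peak. Of the 8 with both a mock and an Ara-C peak, 1 had a DNR peak, against 10.0% of the 100 other small RNA genes with both. A pair of neighbouring genes among the 8 was counted from the same Ara-C peak, so the counts are not of independent genes. RNU4ATAC, the partner of U6atac in the minor spliceosome, had a peak of 400 bp in mock and in Ara-C, at the same position, and none in DNR. RNU5B-1 had a mock peak of 450 bp. RNU7-1, of the U7 RNA that acts in histone mRNA processing, had mock peaks of 350 and 400 bp and an Ara-C peak of 400 bp, with the coding gene C12orf57 near. At RNU5F-1 the mock (300 bp) and Ara-C (450 bp) peaks lay over the gene, while the DNR peak of 150 bp lay 677 bp from it.

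For the proteins that transcribe and control these genes (35 genes of Pol III subunits, TFIIIA, TFIIIB, TFIIIC, SNAPc and the Pol III repressor MAF1), 17 had a mock peak within 1 kb of a TSS, 17 an Ara-C peak and 4 a DNR peak. The DNR share of 11.4% has a Wilson interval of 4.54% to 26.0%, which includes the 6.61% of all coding genes, while the mock and Ara-C shares were 48.6% (33.0% to 64.4%) against 23.0% and 27.8%. Within 500 bp of a TSS the DNR count was 2 of 35, since the DNR peaks of BRF1 and POLR1C lay 812 and 559 bp away. Of the 14 with both a mock and an Ara-C peak, 2 had a DNR peak, against 13.4% of coding genes with both. BRF1, the TFIIIB subunit of genes with internal promoters, had mock peaks of 200, 250 and 300 bp, an Ara-C peak of 250 bp and a DNR peak of 350 bp. GTF3C5, a TFIIIC subunit, had mock peaks of 200, 300 and 400 bp, an Ara-C peak of 600 bp and a DNR peak of 200 bp. POLR1C, a subunit shared by RNA polymerases I and III, had a DNR peak of 200 bp, and SNAPC4, the largest SNAPc subunit, a DNR peak of 150 bp. Mock peaks of at least 400 bp were also found at POLR3A (500 bp), the largest Pol III subunit, POLR3E (400 bp) and SNAPC5 (450 bp).

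Of 24 genes for proteins found in complexes with the members' RNAs, 14 had a mock peak, 13 an Ara-C peak and 0 a DNR peak. The shares were 58.3% (Wilson interval 38.8% to 75.5%) in mock and 54.2% (35.1% to 72.1%) in Ara-C, above the 23.0% and 27.8% of all coding genes, while the DNR interval of 0.0% to 13.8% includes their 6.61%. Of the 9 with both a mock and an Ara-C peak, 0 had a DNR peak, against 13.4% of the 2757 coding genes with both. So few genes cannot tell 0 from that share. RPP40, a subunit of RNase P and RNase MRP, had a peak of 400 bp in mock and 250 bp in Ara-C. SRP9, which binds 7SL in the signal recognition particle, had 400 and 200 bp, and HEXIM2, which binds 7SK, 500 and 200 bp.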

How the data were processed

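SUMO-2/3 ChIP-seq peaks of mock-, Ara-C- and DNR-treated HL-60 cells were used as deposited, 1 list per condition from 3 pooled replicates. Per the labels and methods, the authors aligned single-end reads to hg19 with CASAVA 1.8.2, and with Pasha kept unique reads, removed piled-up reads, extended reads, scaled 50 bp bins and subtracted input. The pile-up threshold was 5 in mock and 4 in Ara-C and DNR, and what this did to the lists was not tested. The deposited values are positions in bp, with no score, count or ratio. The authors called peaks as runs of bins exceeding 32 in signal, bridging gaps up to 100 bp. Positions are 1-based.

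Genes came from GENCODE 44 lifted to GRCh37. RPPH1 and RN7SL1 were located with blastn 2.17.0. Peaks within 1000 bp of the gene (small RNA genes) or of any basic coding TSS were counted, and 1 shared bp made peaks overlap. Shares have 95% Wilson intervals for counting error only. Scripts ran in Python 3.11.15 (pandas 2.3.3, numpy 2.4.6, pysam 0.24.0), and the counting steps were tested on simulated data. From the wider lists, genes were named if they had a peak in all 3 lists, in DNR, or of at least 400 bp in mock. The members and lists were chosen with earlier results of these data known.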

Additional observations from a re-analysis of the deposited data

How the results depend on the processing

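Over 10 alternative settings, 60 values of 17 results were recomputed, of which 44 stayed within 1.5 times the count or within the Wilson interval of the share and 16 moved. The number of members with a peak moved past that limit when peaks within 1 kb of a coding TSS were left out, a setting added after the data had been seen, which gave 3 (mock), 2 (Ara-C) and 2 (DNR) members. Requiring overlap with the gene left 5 mock peaks and 3 DNR peaks. With the 5′ end of the gene record as the TSS, 3 mock peaks near members came within 1 kb of a coding TSS. The share of coding genes with a mock, Ara-C or DNR peak was 18.9%, 22.7% and 4.04% within 500 bp, 27.3%, 33.6% and 10.3% within 2000 bp, and 16.0%, 19.8% and 3.45% with peaks of at least 200 bp. With that width, 4 other Pol III genes had a mock peak. No paired analysis was possible because the replicates were pooled into 1 library per condition, and no replicate could be left out. Depth is unknown, so a gene without a peak is not shown to lack SUMO-2/3.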

Other observations

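Transfer RNA genes and some other Pol III genes with internal promoters carry a B box, bound by TFIIIC, whose letters GTTCGANTC were searched in all peaks on both strands. They were found in 119 mock peaks (0.269%, Wilson interval 0.225% to 0.322%), 152 Ara-C peaks (0.210%, 0.179% to 0.246%) and 58 DNR peaks (0.174%, 0.135% to 0.225%). Windows of the same width 2000 bp to either side held them in 0.0870%, 0.0885% and 0.0944%. Of the 119 mock peaks with these letters, 86 shared a base with an Ara-C peak (72.3%, 63.6% to 79.5%), against 16.1% of all mock peaks, and 26 with a DNR peak (21.8%, 15.4% to 30.1%), against 3.38%. The letters were searched after the peak lists had been seen, the peaks are not replicates, and width and gene density were not matched.

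Other families of annotated small RNA copies had peaks within 1 kb at similarly low shares. Of 1327 copies of U6, 2.56% had a mock peak, 4.07% an Ara-C peak and 1.58% a DNR peak. Of 855 copies of Y RNA the shares were 4.09%, 5.73% and 2.11%, and of 509 copies of 5S RNA 3.34%, 6.68% and 2.55%.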
